A study of Mus musculus with 2 samples.

Results

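The genes described here bring amino acids into the cell or make amino acids and one-carbon units inside it, and all are known targets of Atf4, the transcription factor of the integrated stress response. They are 10 genes: the transporter genes Slc7a1, Slc3a2, Slc7a5 and Slc7a11, the asparagine synthetase gene Asns, the serine synthesis genes Phgdh, Psat1 and Psph, and the mitochondrial one-carbon genes Shmt2 and Mthfd2. The genes were chosen with earlier results of these data known. Their spots were then taken by gene name, with no measured value used, as the transcript spots that carry these names in both array files. That gave 18 probes of 41141 on the array, for 10 of 18181 coding genes. Of the 10 genes, 9 had a mean log2 signal above 4.5 on both arrays, as did 9430 of all coding genes, and Slc7a11 did not.

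The cells were NIH3T3, a mouse embryonic fibroblast line, grown on 4 plates per experiment with 10% bovine serum. Control cells were untreated, and stressed cells received 10 µM thapsigargin, which blocks the calcium pump of the endoplasmic reticulum (ER), for 3 h; both groups were the same line, with no engineered allele given in the labels. A 10 to 40% sucrose gradient separated polysome-bound RNA (P, labelled with Cy3) from the pooled free and monosome RNA (FM, labelled with Cy5), and P and FM of a condition were hybridised together to 1 two-colour array. Each array held RNA pooled from 3 preparations, so the 2 arrays are 1 sample each. Differences between them could not be checked against replicates, and none was tested. The nearest substitute is the spread between probes of 1 gene, which covers array error only.

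On these arrays, log2 P/FM is the log2 ratio of the P signal to the FM signal and serves as the translation efficiency, so that a value of 0 means equal signal in both fractions. A averages the log2 signals of P and FM and serves as the relative abundance of an mRNA. Changes are stress minus control. In these bulk lysates, fewer cells with an mRNA and less of it per cell cannot be told apart.

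When eIF2 is phosphorylated, initiation falls for most mRNAs, while Atf4 mRNA, whose upstream reading frames normally hold ribosomes away from its coding sequence, is translated better. Atf4 then binds, mostly with a C/EBP partner, to the amino acid response element of its target genes and raises their transcription. Targets include importers of amino acids and the enzymes that make asparagine, serine and glycine. An mRNA of such a gene can therefore be made in larger amount under conditions in which initiation is low, and the arrays measure both sides: how much of the mRNA there was, and in which fraction it lay.

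The core of the amino acid response element was looked up first, because Atf4 acts through it. RefSeq promoter windows of 300 bases (assembly GRCm38.p6) held 9 of the 10 genes, Slc7a5 being the exception. The letters searched were TGATGNAA, on both strands. A match stood in 2 of these 9 genes (22.2%), against 4.51% of 27025 genes with a window, and in 2 of their 11 windows (18.2%), against 3.97% of 32851. The matches in Slc7a11 were 2, on opposite strands and without overlap. Of all genes, 0.289% held 2 or more matches summed over their windows, where a site in overlapping windows can be counted repeatedly. Both stretches are printed because they are the windows with a match, with the matches in capitals, 5′ to 3′ on the gene's strand. The Asns stretch is chr6:7693210-7693252 on the minus strand and runs from 43 to 1 bases before the transcription start. The Slc7a11 stretch is chr3:50443633-50443699 on the minus strand and runs from 86 to 20 bases before the start.
Asns: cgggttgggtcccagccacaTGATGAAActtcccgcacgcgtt
Slc7a11: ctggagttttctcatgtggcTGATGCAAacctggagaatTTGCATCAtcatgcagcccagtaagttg
A match is a run of letters and not a measured binding site, and the other 7 genes lack these letters only within these windows.

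Of the 9 genes above the filter, all but Psat1 had a higher A under stress, and most were higher in FM by more than in P. Their median change in A was 1.10, against 0.30 for all 9430 coding genes. A was higher by 1 or more for 5 of the 9 (Asns, Slc3a2, Slc7a1, Psph and Mthfd2), a size that 8.97% of all coding genes reached. This count was 3 with the arrays centred, with the processed signals or as summed signals, where 2.76%, 3.81% and 8.81% of all coding genes reached this size. With normexp background correction it was 2 of 10, against 0.589% of 18181 coding genes. The 9 genes had a median change of 1.61 in the log2 FM signal, against 0.65 for all genes. Of the 9, 7 were higher in FM by 1 or more (all but Psat1 and Shmt2), against 29.3% of all genes. In P the median change was 0.38, against -0.04 for all genes, and 2 of the 9 were higher by 1 or more, Slc3a2 and Slc7a1, against 13.7% of all genes. The 10 spike-in probes, which carry synthetic RNA added during labelling, were also higher in FM on the stress array, by 0.96, but lower in P, by 1.51. Scaled to them, 7 of the 9 genes were higher in P by 1 or more, as were 69.6% of all coding genes.

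Translation efficiency divided the genes. Median log2 P/FM of the 9 genes went from 1.27 in control to 0.29 in stressed cells, and that of all coding genes from 0.26 to -0.37. The median share of signal in P, which depends on the dyes as well, went from 70.7% to 55.0% for the 9 genes and from 54.5% to 43.6% for all. By the limits the study set for its classes, 6 of the 9 were sensitive (log2 P/FM lower by 0.8 or more): Asns, Slc7a5, Psat1, Phgdh, Psph and Mthfd2. Of all coding genes 46.4% were sensitive too, so this count says little about the group. It was 3 with loess or with the processed signals (Slc7a5, Psph and Mthfd2) and 0 with spike-in scaling. Of all coding genes, 25.8%, 30.9% and 0.774% were sensitive in these settings, in that order. Resistant mRNAs, at 0.8 or more on both arrays, were 1 of the 9 (Shmt2), against 2.58% of all genes. Inducible mRNAs, at or below 0 in control and higher by 1 or more under stress, were 1 of the 9 (Slc7a1), against 8.58%. That mRNA was also the only one of the 9 whose log2 P/FM was higher by 1 or more, as it was for 9.5% of all genes.

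**Figure D1:**
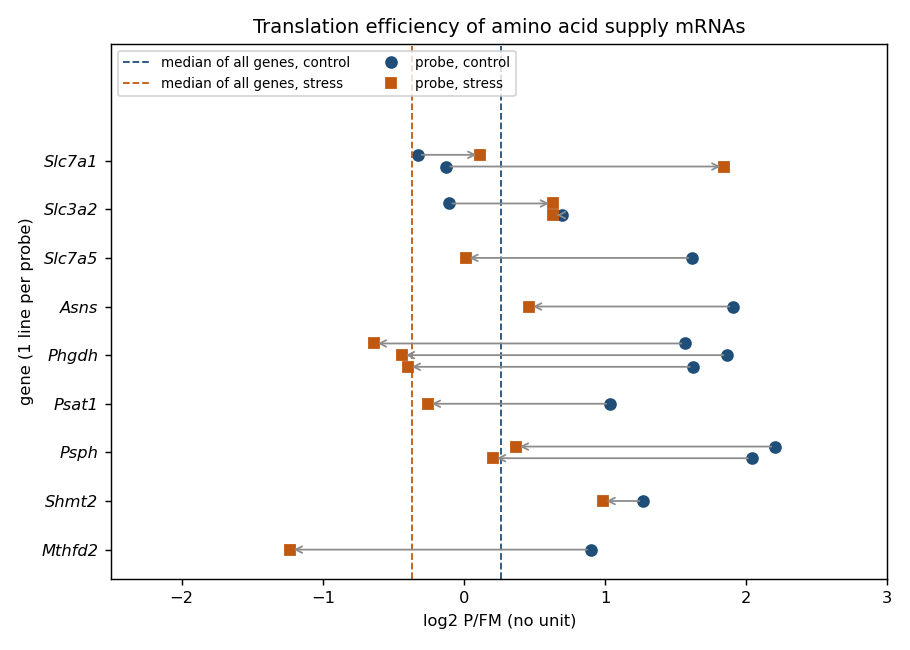
log2 P/FM (x axis, no unit) of each probe of the 9 genes above the filter, in control (circles) and stressed cells (squares), with an arrow from control to stress and 1 line per probe. The dashed lines are the medians of all coding genes, 0.26 in control and -0.37 in stressed cells. Both probes of Slc7a1 and 1 of Slc3a2 point to the right, and the other 11 probes to the left.

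The direction of log2 P/FM depended on how the arrays were put on one scale. The values above have no normalization, as in the study, which kept the proportions of P and FM RNA for labelling. By its account, P held more RNA than FM in control cells, and FM more than P under stress. The amounts of P and FM RNA labelled therefore differed between the 2 arrays, and how much of the changes in signal comes from this was not tested. Whether spike-in RNA was added in equal amounts to all labellings is not given in the sources used here, so which scaling holds is not settled. The spike-in probes shifted by -2.47 in log2 P/FM. Scaled to these probes, log2 P/FM was higher under stress in all 9 genes, and the median of all coding genes was 1.78. With each array centred on its median, the 9 genes kept a median change of -0.81, against -0.06 for all genes. Loess within each array, which also takes out the dependence on brightness, gave 0.16 for the 9 genes and -0.12 for all. Centring and spike-in scaling shift all genes by the same amount and leave differences between genes as they are. Loess and the processed signals do not, and ranges over the alternatives are given for the 4 pairs of genes compared.

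**Figure D2:**
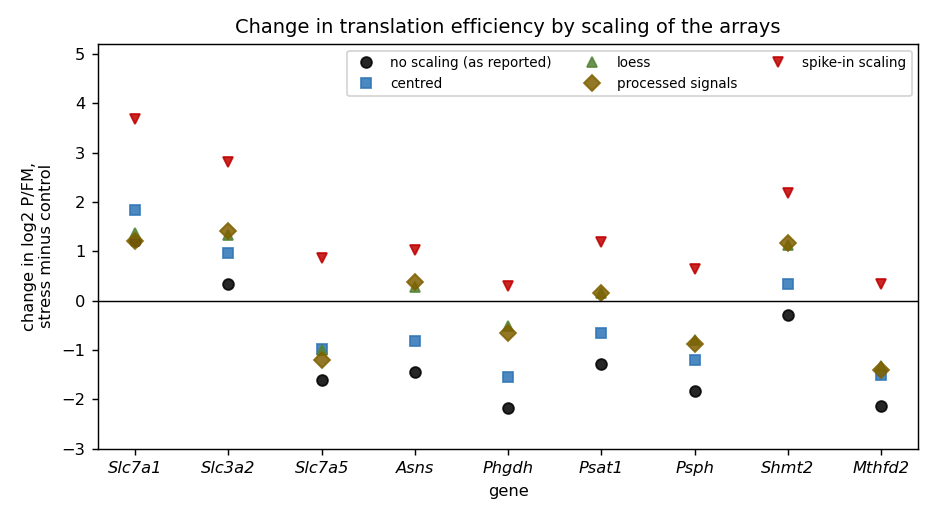
Change in log2 P/FM, stress minus control (y axis, no unit), of the 9 genes under 5 scalings of the 2 arrays: none (as reported), centring of each array on its median, loess within each array, the scanner software's processed signals, and scaling to the spike-in probes. Slc7a1 lies above 0 under each and Phgdh, Psph, Slc7a5 and Mthfd2 below 0 under all but the spike-in scaling.

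Among the transporters, Slc7a1, which encodes the main carrier of arginine and lysine in many cells (CAT-1), was higher in both fractions and more so in P. It is covered by 2 probes for NM_007513 that lie 4850 bp apart on chromosome 5 (mm9, minus strand), and the first 30 bases of both are printed because the probes differ. The position the files give for the first covers 34 of its 60 bases.
Slc7a1 probe at chr5:149138970-149139003: ttaagtccgatactaactgtaaatcagctg
Slc7a1 probe at chr5:149143820-149143879: tgagatcctggtcatttctggacagtccct
At the first probe, nearer the 3′ end of the gene, the P signal was 158 in control and 1553 in stressed cells (9.83-fold), and the FM signal 172 and 433 (2.51-fold). At the second, the P signal was 27.5 and 74.8 (2.72-fold) and the FM signal 34.4 and 69.1 (2.01-fold). Both probes were thus higher in both fractions, and in P by the larger factor. Their log2 P/FM went from -0.12 to 1.84 and from -0.33 to 0.11, and their changes, 1.97 and 0.44, differ by more than most probes of a gene do: the median SD between probes of a gene was 0.53 for this change over 4983 genes. Only the first probe alone would count as inducible. On the mean of both, log2 P/FM was higher by 1.20, above 92.7% of all coding genes, and A by 1.77, above 99.1%. The change in log2 P/FM stayed between 1.07 and 3.68 in 15 alternatives, and that in A between 0.06 and 2.31 in 14. The lowest value came with normexp background correction, which moved the median change in A of all genes to -1.53.

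Slc3a2 encodes 4F2hc (CD98), the heavy chain that carries Slc7a5, Slc7a11 and related light chains to the plasma membrane. Its A was higher by 1.94, the largest change among the 9 genes and above 99.3% of all coding genes, and it stayed at 1.06 or more in all 15 alternatives that gave a value. It has 2 probes for NM_008577, 5994 bp apart on chromosome 19 (mm9, minus strand), whose first 30 bases follow because their log2 P/FM differed in control cells.
Slc3a2 probe at chr19:8782189-8782248: gagggcttgctgttacagttcccctttgtg
Slc3a2 probe at chr19:8788183-8788242: gcaccatgagccaggacaccgaagtggaca
At the first, the P signal was 3979 in control and 18791 in stressed cells (4.72-fold) and the FM signal 2460 and 12131 (4.93-fold). At the second, nearer the 5′ end, P was 75.3 and 296.7 (3.94-fold) and FM 81.1 and 191.8 (2.36-fold). Each probe was higher in both fractions, and both stood at a log2 P/FM of 0.63 under stress, but from 0.69 and -0.11 in control cells. The mean change in log2 P/FM was 0.34, within the spread between probes of a gene, against -0.69 for the median gene and -1.28 for the median of 860 genes of like brightness (mean A within 0.5 of that of Slc3a2). Without scaling, more Slc3a2 mRNA was thus found at nearly the same split between the fractions; with loess the change in log2 P/FM was 1.33 and with spike-in scaling 2.81.

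Slc7a5, the gene of LAT1, a carrier of leucine and other large neutral amino acids that pairs with 4F2hc, did not share this. Its 1 probe (NM_011404, chr8:124405142-124405201, mm9) read 560 in P in control and 436 in stressed cells, and 183 and 432 in FM. P was thus lower (0.777 times) and FM higher (2.36-fold). A was higher by 0.44, above 60.4% of all genes, and log2 P/FM went from 1.62 to 0.01, a change of -1.60, with -0.85 as the median of 1303 genes of like brightness. Between the partners, the change in log2 P/FM of Slc3a2 exceeded that of Slc7a5 by 1.94, with a range of 1.21 to 2.61 in 16 alternatives, and the change in A by 1.50, with a range of 1.29 to 1.83 in 15. Slc7a1 exceeded Slc7a5 in log2 P/FM by 2.81 (2.06 to 3.57 in 15 alternatives), and in A by 1.33 (0.30 to 1.88 in 14). The median SD between probes was 0.53 for log2 P/FM and 0.28 for A, so that only the lowest value of the last range, from normexp, is close to it. Between the own probes of these genes the SD was larger, 1.08 and 0.77 for Slc7a1 and 0.56 and 0.47 for Slc3a2. The range for A of Slc7a1 against Slc7a5 thus reaches below the SD of Slc7a1.

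Slc7a11, the light chain (xCT) of the cystine and glutamate exchanger, could not be measured. Of its 4 probes, 3 are for NM_011990 and 1 for the clone sequence AK089283, all on chromosome 3, and of the 16 readings (4 probes, 2 fractions, 2 arrays) 1 was well above background. That reading was P in stressed cells at the probe at chr3:50176047-50176106 (mm9), with a signal of 28.7, where P in control was 8.42. No fold is given, because in control cells the lowest P signal of a probe well above background lay at the floor of 0.5 set for the subtraction. The gene whose promoter window held 2 matches to the response element thus has no usable translation efficiency here.

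Asns makes asparagine from aspartate and glutamine and is a standard readout of Atf4. Its probe (NM_012055, chr6:7625194-7625253, mm9) read 7999 in P in control and 10427 in stressed cells (1.30-fold), and 2134 and 7566 in FM (3.55-fold). Both fractions were higher, FM by far the more. A was higher by 1.10, above 93.6% of all genes. As the log2 of the summed P and FM signals, the change was 0.83, and with the arrays centred 0.73, so that the gene no longer reached 1 under either. log2 P/FM went from 1.91, above 96.1% of all genes in control cells, to 0.46, still above 82.8% under stress. Its change of -1.44 was less negative than the median of 198 genes of like brightness, -1.66, and it was 0.28 with loess and 0.39 with the processed signals.

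In the serine pathway, Phgdh (3-phosphoglycerate dehydrogenase), Psat1 (phosphoserine aminotransferase) and Psph (phosphoserine phosphatase) catalyse consecutive steps from a glycolytic intermediate to serine. All 3 were sensitive, with log2 P/FM falling by 2.18 for Phgdh, 1.29 for Psat1 and 1.83 for Psph, but their abundance differed. With loess and with the processed signals, Phgdh changed by -0.52 and -0.66 and Psat1 by 0.16 and 0.15, short of the limit, and Psph by -0.80 and -0.87. Psph was higher in A by 1.24, Phgdh by 0.52, and Psat1 was at -0.16, the only negative change in A among the 9 genes.

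Phgdh has 3 probes for NM_016966 on chromosome 3, of which 2 lie at nearly the same place and share a run of 17 bases. Their P signals were 8903, 25835 and 3595 in control and 7508, 17846 and 1886 in stressed cells, lower at each. Their FM signals were 2886, 7092 and 1214 in control and 9881, 24176 and 2933 in stressed cells, higher at each. The change in log2 P/FM was -2.02, -2.30 and -2.20, with an SD between probes of 0.14. The mean, -2.18, was the lowest of the 9 genes, with 9.67% of all coding genes lower, and the median of 193 genes of like brightness was -1.65.

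Psat1, with 1 probe (NM_177420, chr19:15979970-15980029, mm9), read 5626 in P in control and 3226 in stressed cells (0.573 times), and 2748 and 3848 in FM (1.40-fold). On the means over probes, this was the largest loss from P among the 9 genes. Its log2 P/FM went from 1.03 to -0.25, and 319 genes of like brightness had a median change of -1.65, lower than its own.

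Psph had the highest log2 P/FM of the 9 genes in control cells, 2.12, above 97.8% of all coding genes, with 81.3% of its signal in P. Its 2 probes for NM_133900 share 40 of 60 bases and are not independent. They read 1430 and 1303 in P in control and 1735 and 1676 in stressed cells. In FM they read 348 and 283 in control and 1503 and 1297 in stressed cells. P was thus higher 1.21-fold and 1.29-fold and FM 4.32-fold and 4.59-fold, and the share in P was 55.0% under stress. A was higher by 1.24, and by less than 1 as the summed signal or with the arrays centred.

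The mitochondrial one-carbon enzymes, which take serine to glycine and a one-carbon unit (Shmt2) and oxidise the folate that carries this unit (Mthfd2), differed in log2 P/FM. Shmt2 (NM_028230, chr10:126954811-126954870, mm9) read 3020 in P in control and 4632 in stressed cells (1.53-fold), and 1254 and 2342 in FM (1.87-fold). Both fractions were higher by like factors. Its log2 P/FM was 1.27 and 0.98, a change of -0.28, where 466 genes of like brightness had a median of -1.70. It was above 94.1% of all genes under stress, and A was higher by 0.76. Only without scaling was its change below 0; it was 0.35 with the arrays centred, 1.13 with loess and 2.19 with spike-in scaling.

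Mthfd2 (NM_008638, chr6:83256518-83256577, mm9) read 492 in P in control and 689 in stressed cells (1.40-fold), and 264 and 1619 in FM (6.13-fold). This was the largest factor in FM among the 9 genes, above 99.7% of all coding genes. A was higher by 1.55, above 98.6%, and the share in P went from 65.1% to 29.9%, the lowest under stress. log2 P/FM went from 0.90 to -1.23, a change of -2.13, where 1043 genes of like brightness had a median of -1.08. Shmt2 exceeded Mthfd2 in the change of log2 P/FM by 1.85 (1.41 to 2.57 in 16 alternatives) and Phgdh by 1.89 (1.65 to 2.02 in 16).

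**Figure D3:**
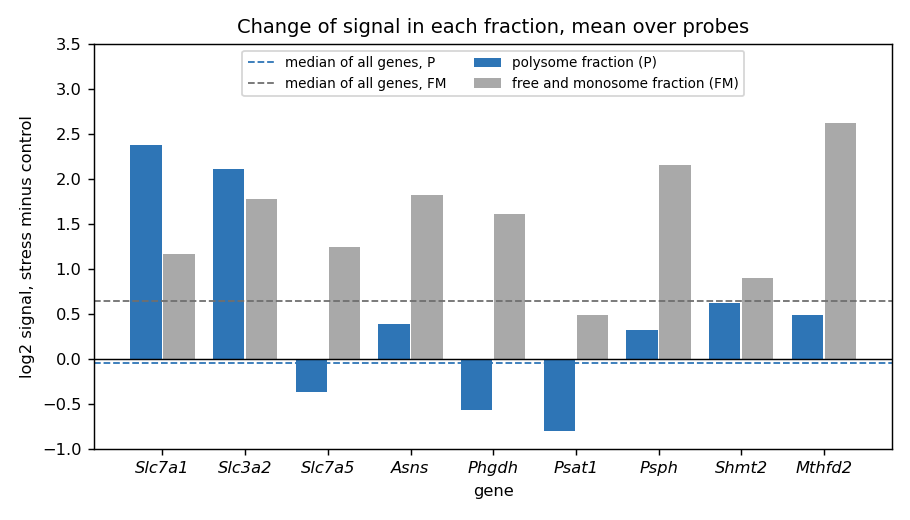
Change in the log2 signal, stress minus control (y axis, no unit), in the polysome fraction (P) and in the free and monosome fraction (FM) for the 9 genes, means over probes. The dashed lines are the medians of all coding genes, -0.04 in P and 0.65 in FM. FM is higher in all 9 genes, P is above FM for Slc7a1 and Slc3a2 alone, and P is below 0 for Slc7a5, Phgdh and Psat1.

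In order of change in log2 P/FM, Phgdh, Mthfd2, Psph, Slc7a5, Asns and Psat1 followed each other from -2.18 to -1.29 in steps no larger than 0.30. These steps are below the median SD between probes (0.53), so the order among these 6 genes is not resolved. Shmt2 stood 1.00 above Psat1, Slc3a2 another 0.62 above Shmt2, and Slc7a1 0.87 above Slc3a2, and each of these steps exceeds that median SD. However, the SD between the own probes was 1.08 for Slc7a1 and 0.56 for Slc3a2, and Shmt2 has 1 probe. The order among these 3 genes is therefore not resolved either. The steps were smaller with loess, which put Shmt2 at 1.13, Slc3a2 at 1.33 and Slc7a1 at 1.38. With the processed signals Slc3a2 (1.42) stood above Slc7a1 (1.21) and Shmt2 (1.17), so the order among these 3 also depends on the scaling. In order of change in A, Psat1 stood 0.60 below Slc7a5, beyond the SD of 0.28, while Mthfd2, Slc7a1 and Slc3a2 at the upper end were 0.22 and 0.17 apart, within it. However, Psat1 and Slc7a5 have 1 probe each, and with normexp they stood at -0.22 and -0.23. Their order in A thus depends on the background correction, and with spike-in scaling Psat1 was at 0.12. The transporters above the filter had a median change of 1.77 in A and 0.34 in log2 P/FM, and the 6 enzymes 0.93 and -1.64. In log2 P/FM the transporters ran from -1.60 (Slc7a5) to 1.20 (Slc7a1). Genes of like brightness had medians of -1.70 to -1.08 for the enzymes and -1.28 to -0.43 for the transporters. With loess the enzymes ran from -1.33 to 1.13 and the transporters from -0.99 to 1.38. How much of the difference between the medians goes with brightness was not tested.

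**Figure D4:**
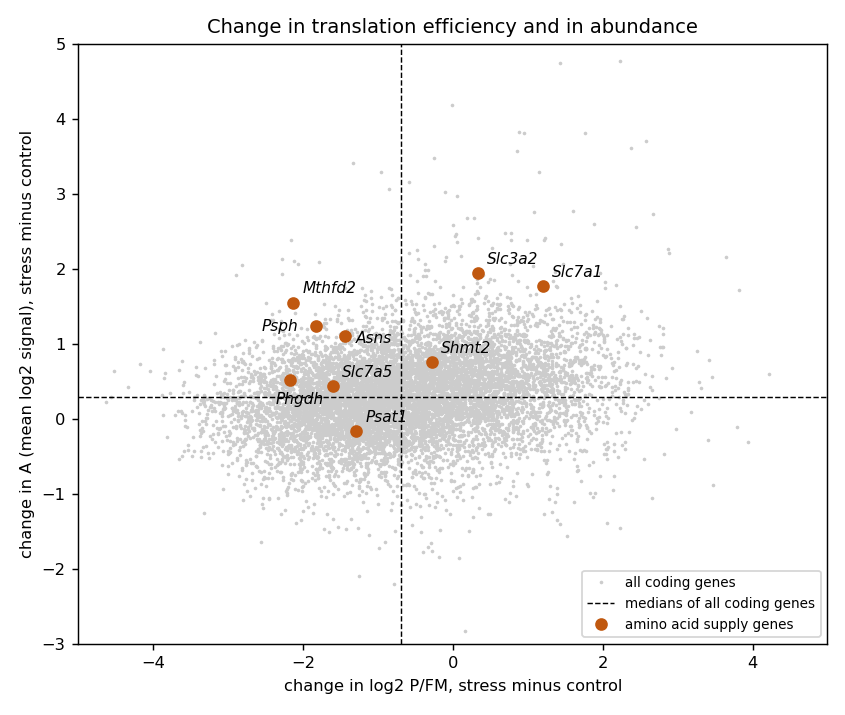
Change in log2 P/FM (x axis) and in A (y axis), stress minus control, of the 9 amino acid supply genes (large points, means over probes) among 9430 coding genes (small points), with dashed lines at the medians, -0.69 and 0.30. Slc3a2 and Slc7a1 lie high and right of the median, Mthfd2, Psph and Asns high and left of it, and Psat1 is below the median in both.

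Other genes of the pathway were counted from lists of names. Of 20 genes in or downstream of the Atf4 arm, 17 were above the filter. Of these, A was at least 1 higher for 9 and 3 were sensitive, against 8.97% and 46.4% of all coding genes. The median changes were 1.17 in A and 0.08 in log2 P/FM. Atf4 itself changed mainly in the fraction it lay in: log2 P/FM went from -1.60 to 1.83 and A was higher by 0.79. Ddit3 (CHOP, an Atf4 target and partner) had a log2 P/FM higher by 2.58 and an A higher by 3.71. The next 4 names had a higher A with a smaller change in log2 P/FM. Trib3, a pseudokinase that restrains Atf4, was higher in A by 3.48 with a change of -0.25 in log2 P/FM, and Chac1, a glutathione-degrading enzyme, by 3.16 with -0.59. Ddit4 and Sesn2, both inhibitors of mTORC1 signalling, were higher in A by 2.36 and 1.38 with 0.06 and 0.22 in log2 P/FM. Among the amino acid supply genes higher in A by 1 or more, log2 P/FM of Asns, Psph and Mthfd2 fell by 1.44, 1.83 and 2.13. In the Atf4 list, Cebpb, a C/EBP factor named after its values were seen, was like them, with 1.17 in A and -2.27 in log2 P/FM.

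Of 16 other amino acid transporters, 12 were above the filter, of which 4 had an A at least 1 higher, 1 was sensitive and 2 were inducible. Of all coding genes, 8.97%, 46.4% and 8.58% were so. The inducible ones were Slc38a2 and Slc7a3, the latter named after its values were seen. The 1 probe of Slc7a3 was not well above background in every channel, and its A in control cells was 4.79, near the limit of 4.5. The median changes of the 12 were 0.59 in A and 0.19 in log2 P/FM. Slc1a4 and Slc1a5, carriers of small neutral amino acids and glutamine, were higher in A by 1.92 and 1.23 with changes of 0.40 and -0.09 in log2 P/FM; of the 2 probes of Slc1a4, 1 was well above background throughout. Slc6a9, a glycine transporter, was higher in A by 1.04 with -0.77 in log2 P/FM. Slc38a2 (SNAT2), a carrier of neutral amino acids with 4 probes, had a lower A, by -0.46, and a log2 P/FM that went from -2.03 to -0.01. Slc7a1 and Slc3a2 were thus not the only transporter mRNAs with higher A and more signal in P, while Slc7a5 shared its sensitive class with 1 of these 12.

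Of 25 other genes of amino acid synthesis and one-carbon metabolism, 24 were found on the array and 23 were above the filter; Pycr1 was not matched to a name. Of the 23, A was at least 1 higher for 9, and 9 were sensitive, 4 were resistant and 3 inducible. The shares of all coding genes were 8.97%, 46.4%, 2.58% and 8.58%. The median changes of the 23 were 0.50 in A and -0.54 in log2 P/FM. The cytosolic counterparts of the one-carbon members were Shmt1, with 0.64 in A and -0.44 in log2 P/FM, and Mthfd1, with 1.56 and 0.23. Of further mitochondrial folate enzymes, Mthfd1l, which releases formate, had 1.50 and 0.02, and Aldh1l2, which oxidises formyl folate, 1.28 and 1.14. Mthfd2 was thus the only one of these 6 folate genes that was sensitive. Aldh18a1, of proline synthesis, had 1.28 in A and 0.47 in log2 P/FM, Cth, of cysteine synthesis, 1.62 and -0.37, and Got1, the cytosolic aspartate aminotransferase, 1.19 and -1.35, close to Asns.

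Over both arrays, 42.5 to 46.3% of the 43379 transcript spots were well above background in a channel and none was saturated. None of the 153 negative control spots had A above 4.5, and none of the 18 spots described here was flagged as an outlier. Both arrays were on 1 slide and read in 1 scan. Of the fibroblast markers, 10 of 10 were detected on both arrays, with 0 of 4 endothelial ones. The epithelial markers Krt8 and Krt14 (2 of 5) were detected in control cells and 0 of 5 in stressed cells, while the immune markers Cd68 and Cd3e (2 of 5) and the neuronal marker Tubb3 (1 of 3) were detected on both. All 14 probes of the 9 genes were well above background in both channels of both arrays.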

How the data were processed

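RNA of P and FM, adjusted to 300 ng per sample, was hybridised by the authors to 1 array per condition. Per the file headers, the deposited spot and local background intensity values came from Agilent Feature Extraction 10.7.1.1, without normalization. The deposited files also hold this software's processed intensity values and flags, and a table of the authors' log2 ratios. Here the median background was subtracted in limma 3.58.1 (with signals under 0.5 set to this floor, as in the study), no normalization was applied, 295 spots (0.680%) with an outlier flag were dropped, and probes of a gene name were averaged. Coding genes were those with an NM accession, and genes with A above 4.5 on both arrays were compared. Precision is limited by having 1 array per condition. Alternatives covered background, scaling, filter, unit and summary. The steps were tested on simulated data. The genes, lists and limits were chosen with earlier results of these data known. All 10 genes, and 18 further genes of the lists chosen by name, are given whatever their values. Positions of probes are on mm9, as in the files.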

Additional observations from a re-analysis of the deposited data

How the results depend on the processing

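No paired analysis was possible because each condition has 1 array, and for the same reason no replicate could be left out. Of 277 values of single genes under the alternatives, 205 moved by less than the spread between probes, and 17 changed sign, among them 10 of genes past a limit in the unscaled data. Many of the 205 did not move at all, so this count says little about stability. Other filters, kept outlier spots, probes or accessions as the unit and the authors' ratios left each value they kept as it was. These settings are also among the alternatives counted beside the ranges. For the 9 genes, spike-in scaling gave 0 sensitive, 7 resistant and 7 with P higher by 1 or more (0.774%, 28.1% and 69.6% of all coding genes), medians of 1.38 for the change in A, 1.03 for that in log2 P/FM and 2.76 for log2 P/FM under stress, and changes in log2 P/FM of 1.03 for Asns, 0.87 for Slc7a5, 1.18 for Psat1, 0.30 for Phgdh, 0.64 for Psph and 0.34 for Mthfd2. Loess gave 3 sensitive and 2 inducible (25.8% and 14.9% of all), medians of 0.16 for the change in log2 P/FM and 0.46 for its control level, and changes of 0.28 for Asns and 0.16 for Psat1. The processed signals gave 3 sensitive and 3 with higher A (30.9% and 3.81% of all), medians of 0.76 for A, 0.15 for the change in log2 P/FM, 0.50 in control and 0.76 under stress, and changes of 0.39 for Asns and 0.15 for Psat1. Centring gave 3 with higher A and 2 resistant (2.76% and 3.91% of all), and medians of 0.73 and -0.81. Normexp, where Slc7a11 passed the filter too, gave 2 of 10 with higher A, 1 with higher P (0.589% and 0.924% of all) and a median of 0.52 for A. Summed signals gave 3 with higher A (8.81% of all). Requiring A above 7 left out Slc7a1, so none was inducible (0) and 1 had higher P (4.66% and 10.1% of all). With each of 14 probes as the unit, 8 had higher A and 4 higher P (13.4% and 19.7% of all probes). Beyond the changes that each construction brings, the cause was not tested.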

Other observations

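Some genes in the lists had a lower A under stress together with a higher log2 P/FM. Mat2a, chosen after its values were seen, the enzyme that makes S-adenosylmethionine from methionine, went from 12.88 to 11.88 in A under stress, while its log2 P/FM went from -0.45 to 0.93. Slc38a2 had the same signs, with A lower by -0.46 and log2 P/FM higher by 2.02. In both the FM signal was lower, by -1.70 and -1.47 on the log2 scale, where it was higher in all 9 amino acid supply genes above the filter.

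Atf3, a stress-induced factor downstream of Atf4, was left out of the counts because its A in control cells was 1.16. Its probe was not well above background in every channel, and its A in stressed cells was 6.55.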
